A study of Mus musculus with 4 samples.

Results

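Translation factors are the soluble proteins that bring ribosome, mRNA and aminoacyl-tRNA together. This account describes their mRNAs in C2C12 cells, a mouse myoblast line, after transfection with siRNA against HuR. Genes were taken as translation factors when a symbol in the deposited table began with Eif or Eef and a number, or was Etf1 or Gspt1. This found 71 clone spots of 16841, which stand for 29 genes of 6738 named on the array. Each gene is represented by its brightest clone, judged by the mean of the 4 arrays. No spot carried the symbol Etf1, and clones of that release factor gene appeared only under an older name.

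One set of cells had received siRNA against HuR, an RNA-binding protein encoded by Elavl1, and the other a control siRNA, with 2 arrays each. All cells were proliferating C2C12 in serum-rich medium, 1 line without a transgene, and no array stands for differentiated muscle. RNA was labelled with 33P during reverse transcription and hybridised to spotted cDNA clones, 1 signal per spot. Nothing in the labels states that arrays sharing an siRNA were hybridised with RNA of separate cultures, so the p-values reflect array-to-array spread that may be purely technical. Values are the authors' z-scores: 0 is the mean and 1 unit is 1 SD of all spots in a section of an array. A difference is HuR siRNA minus control siRNA in these units and cannot be turned into a fold change. Different clones, and the 2 sections, which were scaled separately, have levels that cannot be read as relative RNA amounts.

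Initiation starts when eIF2 carries the initiator tRNA to the small ribosomal subunit. The scaffold eIF3 holds that subunit to the mRNA, and the eIF4 proteins bind the cap and unwind the leader. Elongation then runs on 2 GTPases, eEF1A, which delivers aminoacyl-tRNA, and eEF2, which moves the ribosome along, and release factors end the chain. Supply of these factors is closely tied to growth, and proliferating myoblasts make protein at a high rate. Elongation factors and some eIF3 subunits are also known for mRNAs whose translation follows mTOR signalling.

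Some values touch every result below. Elavl1, the targeted gene, was at -0.2 and -0.21 on the arrays labelled HuR siRNA, against -0.12 and -0.2 on the control arrays. Its difference of -0.045 (SE 0.047) did not pass the test, so the arrays show no measured loss of the target mRNA. Npm1, nucleophosmin, after which the deposited table is named, was at 0.23 and 0.4 with HuR siRNA, against -0.07 and 0.04 with control siRNA. Which siRNA each array received is therefore taken from the labels alone. Of 16 myoblast and muscle markers 4 were measured, all above 0 in difference, from vimentin (Vim), at 0.62 and 0.64 against 0.57 and 0.64, to Acta2, at 0.41 and 0.2 against -0.07 and -0.2. Myod1, Myf5, Des and Myog were not among the matched genes, so the myoblast label was not checked against them. Of 4 epithelial markers all were measured, 3 higher and 1 lower, and the smallest p was that of Epcam, at 0.16 and 0.19 against 0.23 and 0.21. Both measured endothelial markers were lower, with Cdh5 at -1.28 and -1.59 against -1.25 and -1.05. Both measured blood markers were also lower, of 5 fibroblast and matrix markers 3 were higher and 2 lower, and the 1 measured neural marker was higher. None of these markers passed the test. The part of other cell types in the results was not tested.

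None of the 29 translation factor genes passed limma's test over all 14033 features at an adjusted p under 0.05, and all had an adjusted p of at least 0.99. The same call was made for 0.0% of all features. At an unadjusted p under 0.05 stood 2 of the 29, or 6.9%, beside 3.76% of all features. These were Eef1e1 and Eif2s3y, both higher with HuR siRNA. By sign alone 18 genes were higher, 10 lower and 1 equal, beside 49.7% of all features higher and 46.8% lower. With source plate medians removed the balance turned to 13 higher and 15 lower, with a median of -0.005. The median difference was 0.02 for the 29 genes and 0 for all features. Differences of 26 genes lay within 0.1 z units of 0, 89.7% of the 29 beside 85.1% of all features. Median precision was a 95% half-width of 0.132 z units, and the interval held 0 for 27 genes.

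**Figure D1:**
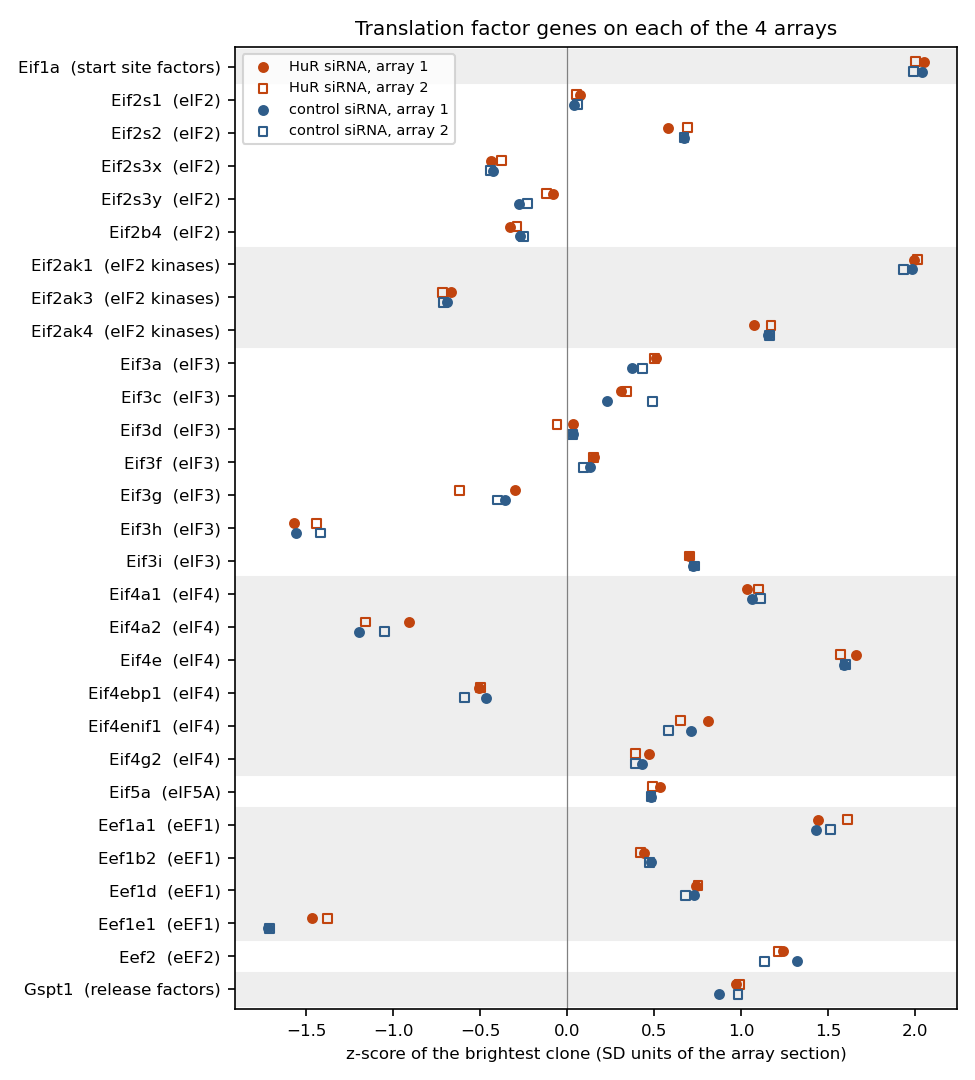
Values of the 29 translation factor genes on each array, 1 row per gene with its complex in brackets; the horizontal axis is the z-score of the brightest clone, with the HuR siRNA arrays in orange above the control siRNA arrays in blue. Within most rows the 4 symbols lie close together, and Eef1e1 shows the widest separation of the groups, -1.47 and -1.38 against -1.72 and -1.71.

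In 7 of the 29 genes both HuR siRNA arrays lay above both control arrays, which is 24.1% beside 13.6% of all features. In 3 genes both lay below, 10.3% beside 13.7%. The other 19 genes overlapped between the groups. The 7 were Eef1e1, Eif2s3y, Eif3a, Eif2ak1, Eif3f, Eef1d and Eif5a, and the 3 were Eif2b4, Eef1b2 and Eif3i. A two-sided exact permutation test of 2 arrays against 2 cannot go below 0.33, so separation without overlap was used only as a description. Many of these separations were small: Eif3i was parted by 0.02, with 0.7 on both HuR siRNA arrays against 0.72 and 0.73 on the control arrays.

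Start codon selection was covered by Eif1a, which encodes a form of eIF1A, the factor that keeps the scanning subunit open. It was at 2.05 and 2 with HuR siRNA, against 2.04 and 1.99 with control siRNA. Each group spanned 0.05, and the difference was 0.01 (SE 0.045). Of its 5 clones 3 lay higher and 2 lower, from -0.05 to 0.08. The deposited table places this gene on another chromosome than RefSeq does, so which eIF1A locus the clones come from is uncertain.

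Of the 5 genes of eIF2 and its exchange factor eIF2B, 3 were higher and 2 lower, with a median difference of 0.01. Eif2s1 encodes the alpha subunit whose phosphorylation slows initiation; it was at 0.07 and 0.05 with HuR siRNA, against 0.04 and 0.06 with control siRNA. The groups overlapped, with a difference of 0.01 (SE 0.039). Eif2s2, the beta subunit that binds the initiator tRNA complex, was at 0.58 and 0.69 against 0.67 and 0.67, so that only the first HuR siRNA array stood apart. Its difference was -0.035 (SE 0.053), and its other clones with symbols that fit the rule were at 0.015 and -0.03. By gene identifier Eif2s2 had 4 clones, and the difference of their mean was 0.01.

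The gamma subunit, which binds GTP and the tRNA, has an X-linked and a Y-linked copy. Eif2s3y, the Y-linked copy, was at -0.08 and -0.12 with HuR siRNA, against -0.28 and -0.23 with control siRNA. Both HuR siRNA values were higher by at least 0.11, and the difference was 0.155 (SE 0.044, 95% interval 0.036 to 0.274). Its unadjusted limma p was 0.0216 and its adjusted p 0.99. The X-linked copy Eif2s3x, at -0.44 and -0.38 against -0.43 and -0.44, overlapped between the groups with a difference of 0.025 (SE 0.043). Its second clone differed by 0.04. The copies are similar in sequence, and how far each clone binds the other's mRNA was not tested. No check was made that the cells carry a Y chromosome, so the Eif2s3y spot is not shown to read Y-linked mRNA. On the source plate of the Eif2s3y clone, 10.1% of features, Eif2s3y included, had an unadjusted p under 0.05. The median difference on that plate was 0.055, against 0 over all features. With source plate medians removed the difference of Eif2s3y was 0.145. Over the alternatives that kept the gene it ran from 0.1025 to 0.18, and the alternative that dropped features of lower mean level left it out.

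Eif2b4, a subunit of eIF2B, the factor that reloads eIF2 with GTP, was at -0.33 and -0.29 with HuR siRNA, against -0.27 and -0.25 with control siRNA. The groups were parted by 0.02 and the difference was -0.05 (SE 0.041). Of the kinases that phosphorylate eIF2, the heme-regulated Eif2ak1 was at 1.99 and 2.01 against 1.98 and 1.93. Eif2ak3, which encodes the endoplasmic reticulum sensor PERK, was at -0.67 and -0.72 against -0.69 and -0.71. Eif2ak4, which encodes the amino acid sensor GCN2, was at 1.07 and 1.17 against 1.15 and 1.16. Differences of the 3 kinases were 0.045 (SE 0.042), 0.005 (SE 0.042) and -0.035 (SE 0.051). Only Eif2ak1 was parted without overlap, by 0.01.

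**Figure D2:**
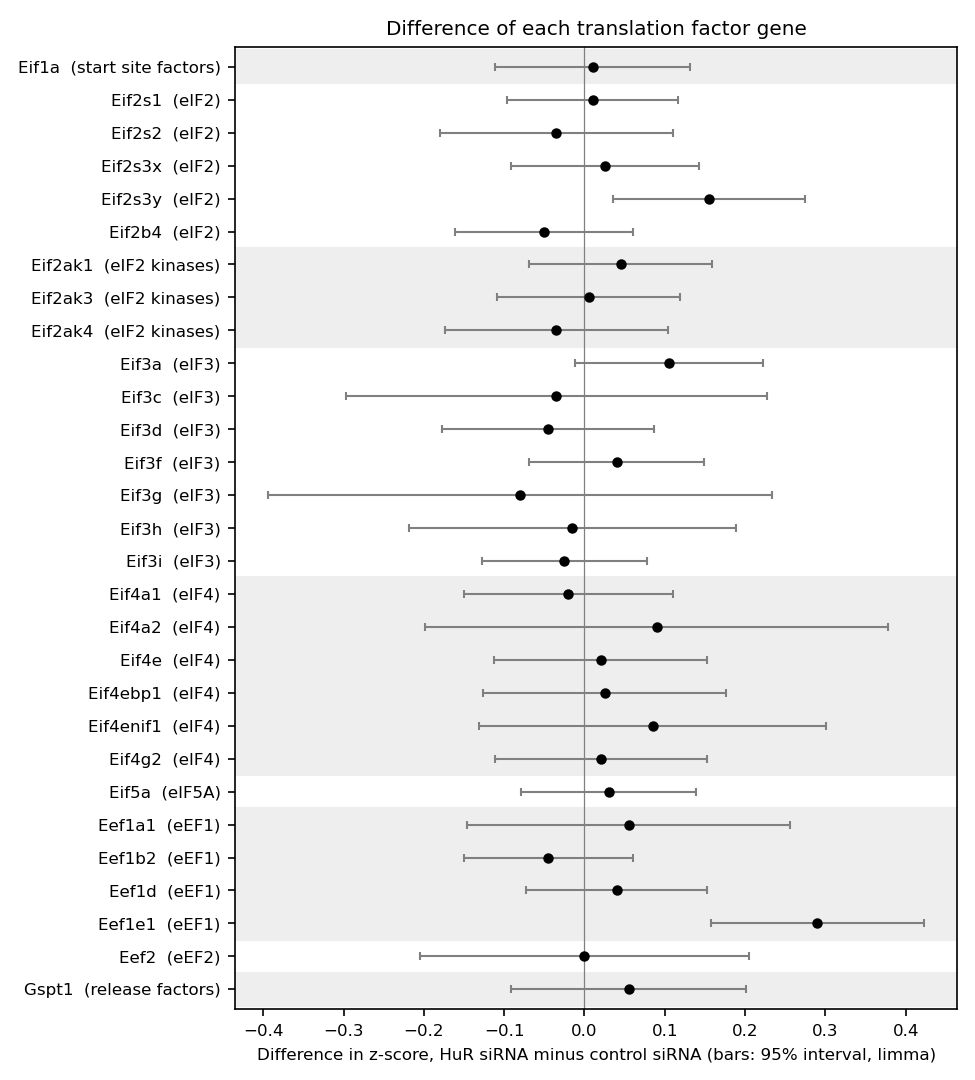
Difference in z-score between HuR siRNA and control siRNA for each of the 29 genes, in the same order; points are differences and bars the 95% interval from limma. The intervals of Eef1e1 (0.157 to 0.423) and Eif2s3y (0.036 to 0.274) lie above 0, and the other 27 hold 0.

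Among 7 eIF3 subunit genes, 2 were higher and 5 lower, with a median of -0.025. Eif3a encodes the largest scaffold subunit; it was at 0.51 and 0.5 with HuR siRNA, against 0.37 and 0.43 with control siRNA. Both HuR siRNA values lay above, by at least 0.07, and the difference was 0.105 (SE 0.043, 95% interval -0.012 to 0.222). Of the other 6 Eif3a clones 1 also parted the groups, at -0.41 and -0.38 against -0.43 and -0.46. The differences of these 6 ran from -0.115 to 0.05, and the mean over all 7 clones was -0.0029. Eif3i, a small WD-repeat subunit, differed by -0.025 (SE 0.038) on the clone used and by 0.11 on its other clone.

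Eif3h, at -1.57 and -1.44 with HuR siRNA and -1.56 and -1.42 with control siRNA, overlapped between the groups. Its spot held the most frequent value of its section on at least 1 array, and its difference was -0.015 (SE 0.075). Eif3g, an RNA-binding subunit, had the widest gap between arrays of 1 group among the 29 genes, -0.3 and -0.62 with HuR siRNA, while the control arrays were at -0.36 and -0.4. Its difference of -0.08 (SE 0.116) turned to 0.08 without the second HuR siRNA array, and its other clone differed by 0.005. Eif3c, the other large scaffold subunit, was at 0.31 and 0.34 against 0.23 and 0.49. Here the control arrays set the spread, and the difference of -0.035 (SE 0.097) was 0.095 without the second control array. Eif3d, which can itself bind the cap of some mRNAs, differed by -0.045 (SE 0.049) and Eif3f by 0.04 (SE 0.041).

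The eIF4 genes numbered 6, of which 5 were higher and 1 lower, with a median difference of 0.0225, and none was parted without overlap. Eif4e encodes the cap-binding protein whose amount limits initiation on many mRNAs. It was at 1.66 and 1.57 with HuR siRNA, against 1.59 and 1.6 with control siRNA, a difference of 0.02 (SE 0.049). The HuR siRNA arrays thus lay on either side of the control arrays. Its 3 other clones differed by 0.015, 0.01 and -0.075. Eif4ebp1, the inhibitor that sequesters eIF4E until mTOR phosphorylates it, was at -0.51 and -0.5 against -0.47 and -0.59, with the control arrays on either side and a difference of 0.025 (SE 0.056).

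Eif4enif1 encodes the transporter 4E-T that carries eIF4E to the nucleus and to mRNA decay bodies. Its brightest clone, at 0.81 and 0.65 with HuR siRNA and 0.71 and 0.58 with control siRNA, overlapped between the groups. The difference was 0.085 (SE 0.08), and the other clones differed by 0.095, without overlap, and by -0.08. Leaving out 1 array moved the 0.085 to between 0.005, without the first HuR siRNA array, and 0.165, without the second. From array 1 to array 2 the value changed by -0.16 with HuR siRNA and by -0.13 with control siRNA. Removing source plate or grid medians gave a difference of 0.025 or 0.0275. The helicase gene Eif4a1 was at 1.03 and 1.1 against 1.06 and 1.11, and its difference was -0.02 (SE 0.048). Its relative Eif4a2, at -0.91 and -1.16 against -1.2 and -1.05, differed by 0.09 with an SE of 0.106, among the least precise of the genes. Eif4g2, the eIF4G-like protein DAP5 that works without eIF4E, differed by 0.02 (SE 0.049) on the clone used. Its other clones with symbols that fit the rule differed by -0.035, -0.04 and 0. By gene identifier Eif4g2 had 5 clones, and the difference of their mean was -0.007.

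Elongation factor 1 gave the single gene with the smallest p. Eef1e1, also called AIMP3, is a partner of eEF1 and a scaffold of the multi-synthetase complex rather than a GTPase of elongation. It was at -1.47 and -1.38 with HuR siRNA, against -1.72 and -1.71 with control siRNA. The nearest arrays of the 2 groups lay 0.24 apart, the larger gap within a group was 0.09, and the difference was 0.29 (SE 0.049, 95% interval 0.157 to 0.423). The unadjusted limma p was 0.00326 and the adjusted p 0.99. Eef1e1 has 1 clone, so no second clone could be set beside it. It lies at a level where spots vary more: the median absolute difference was 0.09 over the 1310 features with a mean level below -1, against 0.04 over the 6375 features from -1 to 0. Of the features below -1, 10.1% had an unadjusted p under 0.05, and the part of the low level in the value was not tested. Over the alternatives that kept the gene, the difference of Eef1e1 ran from 0.23 to 0.335. The alternative that dropped features of lower mean level left Eef1e1 out, so it gave no value for this gene. On its source plate 1 of 75 features, or 1.33%, had an unadjusted p under 0.05, and that feature was Eef1e1 itself.

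**Figure D3:**
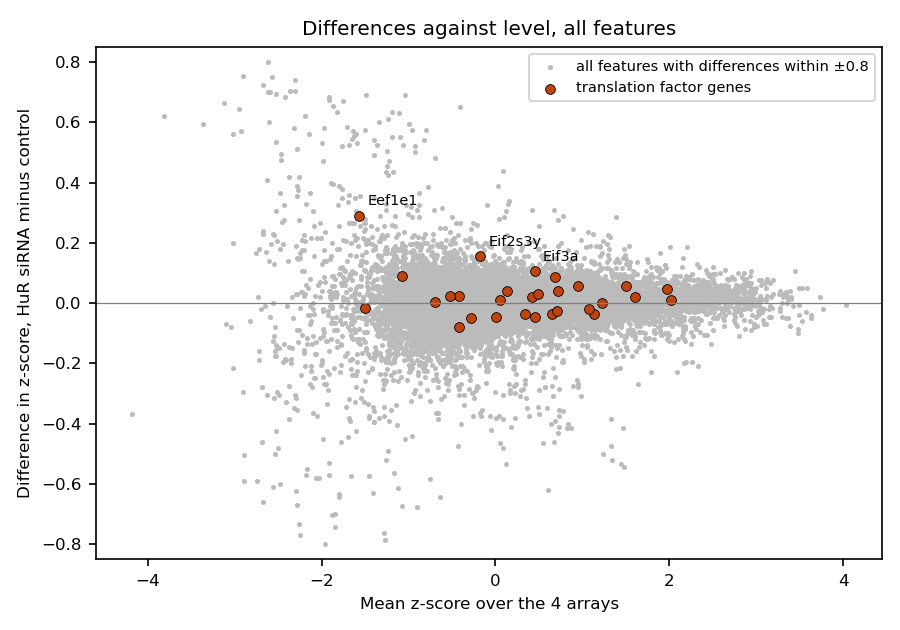
Difference in z-score (vertical axis, HuR siRNA minus control siRNA) against the mean z-score over the 4 arrays (horizontal axis) for 13970 features in grey and the 29 translation factor genes in orange; 63 features beyond 0.8 in either direction are not drawn. The grey cloud is wider at low levels, where Eef1e1 lies at -1.57, and Eif2s3y, at a level of -0.1775 and a difference of 0.155, lies toward the upper edge of the cloud.

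The eEF1 subunits that work in elongation itself were close to 0. Eef1a1, the GTPase that delivers aminoacyl-tRNA, was at 1.44 and 1.61 with HuR siRNA, against 1.43 and 1.51 with control siRNA. The groups overlapped, and the difference was 0.055 (SE 0.075). Over its 8 clones 4 were higher and 4 lower, from -0.065 to 0.055, and on no clone were the groups parted. Of these clones 7 also carry the identifier of a gene that RefSeq names Eef1a1-ps1, a processed copy, and cDNA of a parent and its copy cannot be told apart here. The clone without it was at 0.89 and 0.93 against 0.78 and 0.94, a difference of 0.05. The exchange factor subunit genes Eef1b2 and Eef1d differed by -0.045 (SE 0.039) and 0.04 (SE 0.042), and a second Eef1b2 clone by 0.025. They recharge the GTPase together, and their small shifts had opposite signs.

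Eef2, the GTPase of translocation, had the same mean in both groups on its brightest clone, 1.225 ± 0.021 after HuR siRNA and 1.225 ± 0.134 after control siRNA (± SD over 2 arrays). The arrays were at 1.24 and 1.21 against 1.32 and 1.13. Its 5 other clones were all higher with HuR siRNA, by 0.05 to 0.32, and 4 of them parted the groups. One clone at -0.19 and -0.37 against -0.52 and -0.68 gave the 0.32 (SE 0.091), while 3 clones printed from the same source plate and given the same description gave 0.05, 0.07 and 0.085. The large value was thus not shared by its nearest neighbours. These 4 clones are described as the 3′ end of the mRNA and lie below 0, whereas the 2 clones at 1.225 and 1.2075 lie in the other section and are described as similar to a processed Eef2-related copy.

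Eif5a, the hypusine-bearing factor that helps stalled ribosomes, was at 0.53 and 0.49 with HuR siRNA, against 0.48 and 0.48 with control siRNA. The groups were parted by 0.01, with a difference of 0.03 (SE 0.041). The table places this clone too on another chromosome than RefSeq's Eif5a. Gspt1, the release factor eRF3, was at 0.97 and 0.99 against 0.87 and 0.98. Only the first control array stood apart, and the difference was 0.055 (SE 0.054). The other clones with symbols that fit the rule were at 0 and -0.015. By gene identifier Gspt1 had 4 clones, and the difference of their mean was 0.0162.

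Several clones per gene allowed the same mRNA to be read more than once, for 14 genes with 56 clones whose symbols fit the rule. By gene identifier Eif2s2 had 4 clones, Eif4g2 5 and Gspt1 4. Those without such a symbol are not counted here but enter the means over all clones. In 12 of these genes the clones lay on both sides of 0. All clones lay higher for 1 gene, Eif2s3x, and Eef2 had no lower clone. Over all 71 clones 40 were higher, 27 lower and 4 equal, beside 49.6% higher among all 16833 clones. The groups were parted upward on 15 clones, beside 13.9% of all clones, and downward on 4, beside 13.7%. Clones of 1 gene are repeat readings of the same 4 RNA samples and not replicates. At an unadjusted p under 0.05 stood 4 of the 71, or 5.63%, beside 3.95% of all clones: those of Eef1e1 and Eif2s3y, the Eef2 clone at 0.32 and an Eif4a1 clone at 0.13 (SE 0.044). This Eif4a1 clone and a neighbour from the same plate, at -0.075 (SE 0.041), parted the groups in opposite directions. No clone passed at an adjusted p under 0.05.

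The level read for a gene depended on its clone. Within 1 section, where scores share a scale, 15 sets of clones of 1 gene, with symbols that fit the rule, could be compared. Their levels ranged over 0.018 to 2.49 z units, with a median of 0.62. Eif1a clones of the second section stood at 2.02 and -0.47, and the 3 Eif4enif1 clones, all of the first section, ran from -1.285 to 0.6875. By contrast the differences between the groups stayed within 0.13 of 0 on all member clones except those of Eef1e1, Eif2s3y and the Eef2 clone at 0.32.

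**Figure D4:**
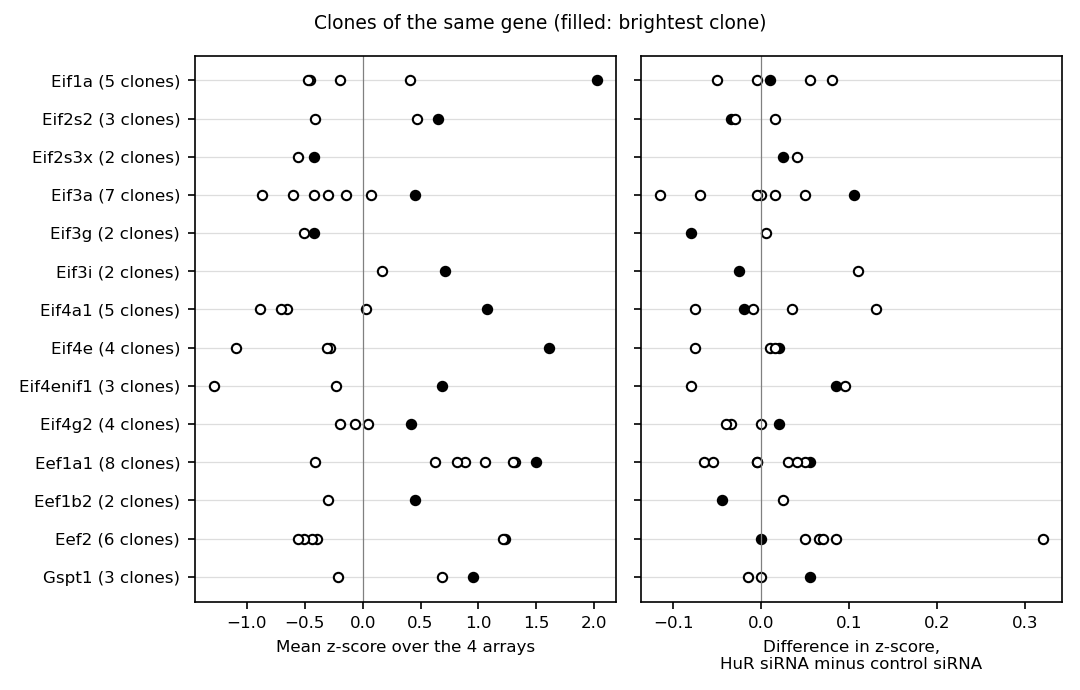
Clones with symbols that fit the rule, for the 14 genes with more than 1 such clone. The left panel shows each clone's mean z-score over the 4 arrays and the right panel its difference, HuR siRNA minus control siRNA. The clone used for the gene is filled. Levels spread by up to 2.49 z units within a section (Eif1a), while differences cluster at 0 apart from 1 Eef2 clone at 0.32.

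The symbols in the table are old, and 23 more factors that stand on the pathway lists below were found through their gene identifiers. Factors on none of these lists were not counted. Of these, 8 were higher, 14 lower and 1 equal, with a median of -0.005. Together with the 29 genes, 26 of 52 were higher and 24 lower, so the surplus of higher genes was not present in the wider set. At an unadjusted p under 0.05 stood 2 of the 23, or 8.7%, beside 3.76% of all features. Eif1ax, the X-linked eIF1A gene, was at -0.3 and -0.25 with HuR siRNA and -0.4 and -0.43 with control siRNA, while its other clone differed by -0.05. Eif4h, which stimulates the eIF4A helicase, was at 0.69 and 0.65 against 0.54 and 0.57, with a difference of 0.115 (SE 0.042). Etf1, the release factor eRF1, was at -0.17 and -0.09 against 0.06 and -0.04, a difference of -0.14 (SE 0.058), and its other clone differed by -0.205 (SE 0.131). Eef1g, which anchors the eEF1 exchange complex, stood at 2.35 and 2.37 against 2.36 and 2.37, and its groups overlapped.

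Counted by complex and including these genes, start site factors had 4 of 8 measured genes higher and 3 lower. The eIF2 and eIF2B list had 5 of 8 higher and 3 lower, and eIF3 4 of 13 higher and 9 lower. The eIF3 subunit gene Eif3e had the largest difference among the higher eIF3 genes, 0.61 and 0.74 against 0.54 and 0.53, or 0.14 (SE 0.059). Among 19 cap-binding and eIF4 genes 10 were higher and 9 lower. Poly(A)-binding protein (Pabpc1), which links the mRNA's tail to eIF4G, differed by 0.06 (SE 0.056), and Larp1, which binds the cap of mTOR-dependent mRNAs, by 0.035 (SE 0.045). The elongation list had 4 of 8 higher and 3 lower, and the termination and recycling list 2 of 6 higher and 3 lower. None of these genes passed the test over all features.

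In neighbouring parts of the pathway no gene passed either. Of the genes that report eIF2 phosphorylation, with the kinases, 6 of 9 were higher and 3 lower. Ppp1r15a, the phosphatase subunit that reverses this phosphorylation, was at -0.13 and -0.13 with HuR siRNA and -0.28 and -0.3 with control siRNA. Atf4, the transcription factor at the centre of that response, overlapped at 0.7 and 0.7 against 0.55 and 0.74. Of 17 cytosolic aminoacyl-tRNA synthetase genes 12 were higher and 5 lower, with a median of 0.015. Alanyl-tRNA synthetase (Aars) was at -0.42 and -0.32 against -0.25 and -0.13, and the glutamyl-prolyl enzyme (Eprs) at 0.17 and 0.06 against -0.05 and -0.02. Their differences, -0.18 (SE 0.066) and 0.15 (SE 0.054), pointed in opposite directions. Aimp2, which like Eef1e1 belongs to the multi-synthetase scaffold, was at -1.26 and -0.95 against -0.97 and -0.9, and Aimp1 at -0.75 and -0.72 against -0.7 and -0.74. Their differences, -0.17 (SE 0.115) and -0.015 (SE 0.042), were below 0, with overlap between the groups for both.

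Of 11 genes of mTORC1 signalling to translation, 4 were higher and 6 lower; the kinase gene Mtor was at 0.22 and 0.29 with HuR siRNA and 0.34 and 0.37 with control siRNA. Its difference of -0.1 (SE 0.046) did not pass. All 10 translation factor and poly(A)-binding protein genes known for a 5′ terminal oligopyrimidine tract, the sequence through which mTOR controls their translation, were measured, 5 higher and 4 lower, with a median of 0.02. Array measurements of total RNA do not read translation itself. Of 5 mitochondrial translation factors 2 were higher and 3 lower, with Tsfm, the mitochondrial exchange factor, at 0.09 (SE 0.041).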

How the data were processed

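RNA of 4 C2C12 samples was measured on spotted cDNA arrays. The authors deposited z-scores, a score read as such from the values: each array has mean 0 and SD 1 in each section of 8448 spots. Sources used here do not give the scanner, background correction or log base. Both deposited tables held equal scores in all 67584 cells, and no further normalization was applied, as planned for z-scores. Groups came from sample titles, and columns were matched to them by siRNA and number. Spots of 1 clone were averaged, and 55 spots with no clone or described as empty were left out. Names were updated through gene identifiers with the RefSeq table of GRCm38.p6. This left 14033 features, 7295 of them unnamed clones.

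The comparison used lmFit and eBayes of limma 3.58.1 (R 4.3.3), two-sided and without a block; p-values were adjusted by Benjamini-Hochberg over every feature, with calls at 0.05. Clone values came from the same fit over 16833 clones. The number of arrays limits the precision. Members and lists were chosen with earlier results of these data known. Each member is named with its difference. Array values are given, per complex, for the members of highest and lowest level and of smallest p, with further members added after their values were seen. Most other lists are represented by members at an unadjusted p under 0.05 or the smallest p. Further genes were chosen after their values were seen. Blood, fibroblast and neural markers, and the genes with an oligopyrimidine tract, are summarized as lists without such a named member. Deviations of same-numbered arrays correlated at 0.102 across features (0.204 across members). From array 1 to array 2 the groups shifted with the same sign in 8007 features and with opposite signs in 4799. Among the members these counts were 15 and 9. No label explains the array numbers, so the arrays were not treated as pairs. No clone sequences were used here.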

Additional observations from a re-analysis of the deposited data

How the results depend on the processing

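The count of translation factor genes past the threshold was 0 under every alternative that kept 2 arrays per group, and 1 or 2 had an unadjusted limma p under 0.05. Without the lower 50% by mean level, Eef1e1 and Eif2s3y were both left out, so the 1 gene counted there was another. The count of all features past it was 0 except with quantile normalization within sections, where it was 1 and no translation factor; the cause was not tested. In a fit blocked on replicate number, 0 features and 0 translation factor genes passed, and the lowest adjusted p of a member was 0.67. At an unadjusted limma p under 0.05 stood 857 features in that fit, beside 527 in the main fit. The higher genes numbered 12 of 20 without the lower 50% by mean level, 13 of 29 with source plate medians removed, where 15 were lower and the median difference was -0.005, and 16 to 19 elsewhere. Leaving out 1 array gave 16 to 18 higher genes and medians of 0.01 to 0.03, a lone array being assumed to vary like the other group. Leaving out member clones whose identifiers disagree was chosen after seeing the data.

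Under at least 1 alternative, 27 of the 29 differences moved by over 1.5 times or changed sign. That of Eef1e1 did not under the alternatives that kept the gene. The difference of Eef2 was 0 as reported, so no ratio could be formed. Of 367 differences recomputed, 33 changed sign, over 19 genes, and none of these genes passed the threshold in either setting. With grid medians removed, Eif2ak1 was at -0.0175, Eif2ak3 at -0.0125 and Eif2ak4 at 0.015. With the mean over all clones, Eif2s2 was at 0.01, Eif3a at -0.0029, Eif3i at 0.0425, Eif4a1 at 0.012, Eif4e at -0.0075 and Eif4g2 at -0.007. With quantile normalization, Eif1a was at -0.01 and Eif3h at 0.0256. With source plate medians removed, Eif1a and Eif2s1 were at -0.06, Eif4e at -0.0275 and Gspt1 at -0.015. Leaving out 1 array gave -0.03 to 0.14 for Eef1a1, -0.015 to 0.035 for Eif1a, -0.02 to 0.03 for Eif2ak3, -0.085 to 0.015 for Eif2ak4, -0.09 to 0.02 for Eif2s2, -0.005 to 0.055 for Eif2s3x, -0.165 to 0.095 for Eif3c, -0.24 to 0.08 for Eif3g, -0.085 to 0.055 for Eif3h, -0.055 to 0.015 for Eif4a1, -0.035 to 0.215 for Eif4a2, -0.025 to 0.065 for Eif4e, -0.035 to 0.085 for Eif4ebp1 and -0.02 to 0.06 for Eif4g2. Causes were not tested.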
